A study of Homo sapiens with 24 samples.

Results

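MCF-10A is an established, immortalised human mammary epithelial line, and MCF-10A MYC-ER is that line carrying MYC fused to the hormone-binding domain of an oestrogen receptor. The step described here runs from 24 h to 48 h of 4-hydroxytamoxifen (4-OHT), the ligand of that fusion, in MYC-ER cells. It was read from 6 of the 24 libraries of the series, 3 per time, chosen by their column names (MYCER_24h and MYCER_48h), and across the 22158 genes that had enough counts to be tested, of 60668 rows in the table. The MYC-ER groups had received 1 µM 4-OHT for 24 h or 48 h. The parental groups, wild-type MCF-10A without the fusion, had received the same dose for the same times, so that 4-OHT itself is common to all of the groups compared. All cultures were grown in 3D on growth-factor-reduced Matrigel from 10000 cells per well, received new medium once, and were harvested at 1 time on day 5. The 24 h and 48 h groups therefore differ in when 4-OHT was added and not in the age of the culture. Both lines also had groups of 0 h, without 4-OHT, and of 8 h at the same dose, harvested on that same day. The 0 h groups are thus untreated cultures of the same age and not an earlier time. The labels do not say whether the MYC-ER line is 1 clone or a pool, which promoter drives the fusion, or how much of the fusion protein each culture held. They describe triplicate wells and no separate cultures, so p-values measure the spread between these libraries, which may be technical. Each lane held 3 libraries, and since their sharing of lanes is not stated, lane and group cannot be told apart.

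MYC is a transcription factor that pairs with MAX on DNA, most often on letters called the E-box, and is known for raising ribosome production, nucleotide synthesis and entry into the cell cycle. The fusion protein is kept idle by chaperones until 4-OHT binds it, so the MYC-ER line allows its activity to be switched on at a chosen time. MCF-10A cells in Matrigel grow into hollow spheres that stop dividing as they mature, which makes proliferation, survival and epithelial differentiation the usual readouts of an oncogene in this model.

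The 6 MYC-ER libraries held 136860029 to 163896449 counts each and the 6 parental libraries of the same times 149204049 to 176299944. Levels are given in CPM, which puts the counts of all libraries on 1 total. Taking 3 counts as the most that a count of 0 allows, the detection limit was 0.0219 CPM in the smallest of the 6 libraries, which covers counting error only. Replicates of a MYC-ER group had Spearman correlations of 0.990 to 0.992 over log2 CPM, and libraries of different times 0.963 to 0.967. Replicates differed by more than counting noise (chi-square per degree of freedom 8.45 to 19.8), so each was counted separately. Mitochondrial transcripts took 6.34% to 6.78% of the counts. All 10 markers of basal mammary epithelium were detected, with a summed level of 11870 to 12450 CPM at 24 h and 11720 to 12400 CPM at 48 h. PGR, which MCF-10A lacks, had 0 counts in all 6 libraries. ESR1, listed with PGR as absent, was above the detection limit, with 0.107 to 0.233 CPM at 24 h and 0.274 to 0.456 CPM at 48 h. Of 8 fibroblast markers COL1A2 and COL3A1 were at 0, and the sum over the list was 80.0 to 91.9 CPM at 24 h and 121.3 to 130.2 CPM at 48 h, nearly all of it COL1A1 and DCN. Of 7 blood markers PTPRC, CD3E and HBB were among those at 0, and the sum was 30.4 to 33.5 CPM at 24 h and 38.1 to 41.5 CPM at 48 h. CSF1R made up most of it, with 18.8 to 19.3 CPM at 24 h and 29.3 to 30.7 CPM at 48 h. The rest was CD68 (5.94 to 8.63 and 4.20 to 6.77 CPM) and CD14 (5.04 to 5.58 and 3.86 to 4.08 CPM). Endothelial and adipocyte lists summed to under 2 CPM, with CDH5, CLDN5, ADIPOQ and LEP at 0.

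From 24 h to 48 h, 11908 genes (53.7% of those tested) passed an adjusted p of 0.05 in edgeR's quasi-likelihood test, 6258 of them higher at 48 h (28.2%) and 5650 lower (25.5%). At least 2-fold changes were called for 4006 genes (18.1%), 2407 higher (10.9%) and 1599 lower (7.22%), and at least 4-fold changes for 859 higher and 391 lower genes. The replicate values of both times did not overlap for 15061 genes (68%). Libraries that lie apart, remarked on for single genes below, were therefore the rule and not particular to the genes named. The counts of calls within lists below likewise stand against 28.2% of all genes higher and 25.5% lower. The median log2 change over all genes tested was 0.06. In bulk RNA, a lower level of a gene may come from fewer cells of a type or from less of its RNA per cell, and these cannot be told apart. CPM are shares of a scaled total, so a change in the total RNA per cell would not show in them.

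Named first are the 12 largest rises and falls among called genes of at least 10 CPM in 1 of the 2 groups whose libraries do not overlap, so that separate libraries are a condition of that choice. The rises included genes of inflammation and innate defence and a few metabolic enzymes. ACSS1, a mitochondrial enzyme that makes acetyl-CoA from acetate, stood at 0.914, 1.03 and 0.596 CPM at 24 h and 31.8, 31.9 and 30.1 CPM at 48 h. Every 48 h library lay above every 24 h library, and the log2 change was 5.20 (SE 0.19, adjusted p 2.5e-15). ELF3, an epithelial ETS factor, went from 0.716, 0.707 and 0.404 to 21.3, 21.1 and 24.4 CPM, a change of 5.19 on the log2 scale (SE 0.25, adjusted p 1.6e-13). For CSF1, the macrophage growth factor, the 24 h libraries held 4.28, 4.34 and 4.84 and the 48 h libraries 128, 128 and 128 CPM (4.84, SE 0.10, adjusted p 4.7e-19). Replicates of CSF1 at 48 h thus agreed to the third digit, and those of the other genes named here spread far less than the distance between the times. TNFAIP2, a gene induced by tumour necrosis factor, had 3.6, 3.48 and 4.25 CPM at 24 h and 97.3, 97.6 and 107 CPM at 48 h (log2 change 4.74). CXCL2, a neutrophil-attracting chemokine, had 1.11, 1.42 and 1.81 CPM at 24 h and 34.3, 32.3 and 34.2 CPM at 48 h (4.54). CFB, complement factor B, had 5.49, 6 and 6.55 CPM at 24 h and 99.2, 100.0 and 116 CPM at 48 h (4.13). Also among the 12 largest rises were NFATC4 (4.71), GFPT2, an enzyme of hexosamine synthesis (4.38), CHI3L1 and CHI3L2, chitinase-like secreted proteins (4.16 and 4.08), the VEGF receptor KDR (4.07) and the cytokine TNFSF14 (4.02). CHI3L1 and CHI3L2 are close relatives, and how reads that match both were shared between them is not stated.

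The falls included genes of S phase and growth-linked transcription factors. CCNE2, the cyclin that starts S phase with CDK2, had 17.1, 16.8 and 11.9 CPM at 24 h and 1.03, 1.18 and 1.03 CPM at 48 h. All 3 libraries at 48 h were under every library at 24 h, and the log2 change was -3.82 (SE 0.22, adjusted p 2.5e-12). FAM111B, a protease of replicating cells, went from 78, 71.1 and 69.3 to 5.7, 4.93 and 5.11 CPM (-3.79, SE 0.08, adjusted p 1.1e-18). MCM10, a factor that starts replication origins, went from 43.8, 40.2 and 39.1 to 4.19, 3.34 and 3.43 CPM (-3.49). RRM2, the subunit of ribonucleotide reductase that limits dNTP supply, had 200.4, 184 and 182 CPM at 24 h and 22.4, 19.8 and 19.9 CPM at 48 h (-3.19). DTL, which marks replication-licensing proteins for breakdown in S phase, had 139, 135 and 131 CPM at 24 h and 15.1, 13.7 and 13.9 CPM at 48 h (-3.25). MYB, a transcription factor of dividing progenitors, had 12.8, 12.1 and 11.3 CPM at 24 h and 1.23, 1.07 and 1.18 CPM at 48 h (-3.37). The remaining genes of the 12 largest falls were ZNF367 (-3.42), IGFBP3, a binder of insulin-like growth factors (-3.29), E2F2 (-3.20), the ETS factor ETV4 (-3.16), PPFIA4 (-3.10) and CLSPN, an adaptor of the replication checkpoint (-3.08).

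**Figure D1:**
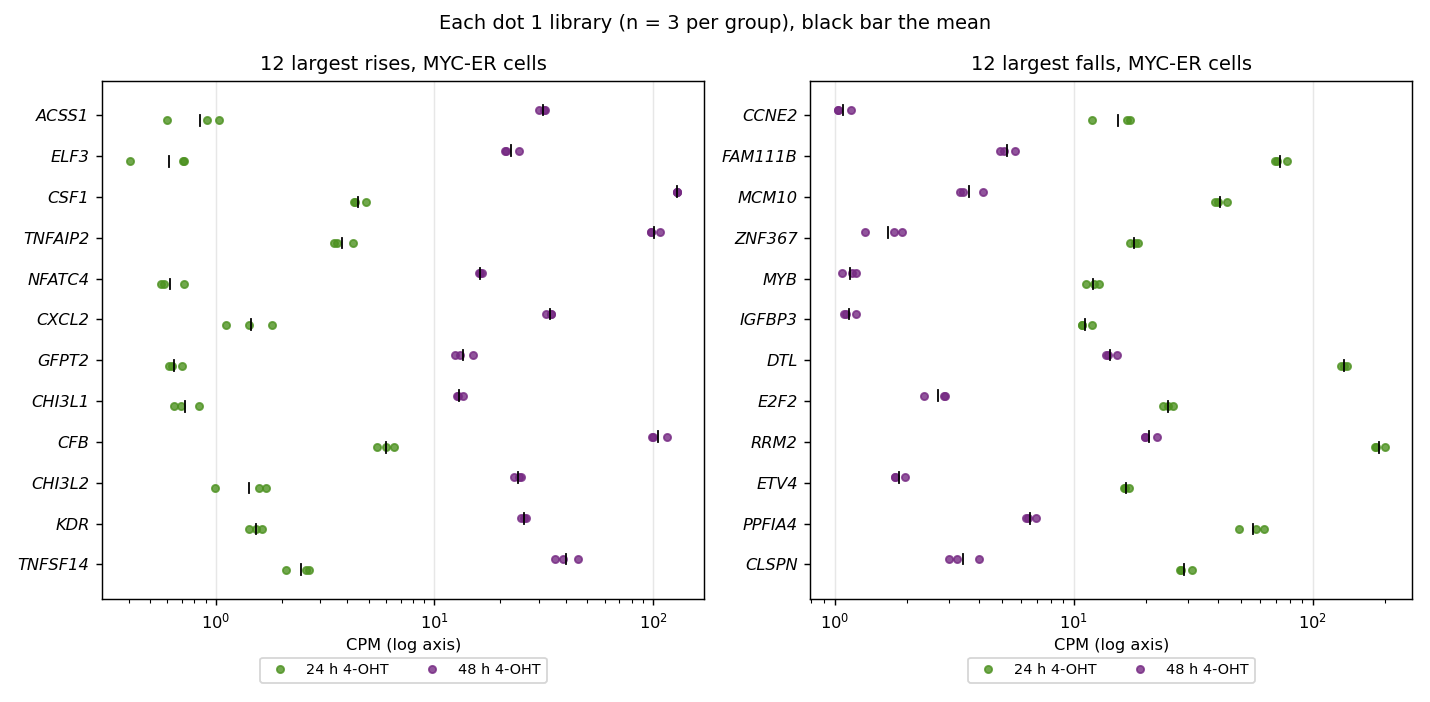
CPM on a log axis for the 12 largest rises (left) and 12 largest falls (right) from 24 h to 48 h of 4-OHT in MYC-ER cells, 1 dot per library (n = 3 per group) with the mean as a black bar. ACSS1 sits at 0.596 to 1.03 CPM at 24 h and 30.1 to 31.9 CPM at 48 h; genes were chosen without overlap between the times.

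Among genes that changed at least 2-fold, the 5 most abundant over the 6 libraries were FTH1, the ferritin heavy chain, S100A2, SCD, HSPA8 and SOD2. FTH1 rose from 3244, 3037 and 3072 to 8647, 8448 and 8274 CPM (log2 change 1.44, SE 0.09, adjusted p 8.5e-12). SOD2, the mitochondrial superoxide dismutase and a classical NF-kB target, rose from 261, 245 and 265 to 4021, 4151 and 4226 CPM (4.01, SE 0.08, adjusted p 4.7e-19). SCD, which desaturates fatty acids, fell from 2969, 2744 and 2659 to 1325, 1284 and 1219 CPM (-1.13). S100A2, a calcium-binding protein of basal epithelium, had a log2 change of -1.19. For all of them the 3 libraries of one time lay on the same side of the 3 of the other.

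NF-kB is a family of transcription factors made of RELA, RELB, NFKB1 and NFKB2 chains. Inhibitors such as NFKBIA hold it in the cytoplasm until cytokine receptors free it, and it then switches on chemokines, acute-phase genes and its own inhibitors. Of 27 tested genes of the NF-kB and inflammatory mediators, 24 rose, 1 fell and 2 did not pass (CSF2 and CXCL5), beside 28.2% of all genes called higher. Their median log2 change was 2.21, against 0.06 over all genes, and 22 of them rose at least 2-fold. The promoters of 3 genes that carry letters of the NF-kB motif are shown first, because they show the letters that were searched for in this list and in antigen presentation. They come from RefSeq (GRCh38.p14) and span the 200 bases before the first transcription start in that table. The motif is in capitals.
BIRC3, chr11:102317284-102317483, strand +: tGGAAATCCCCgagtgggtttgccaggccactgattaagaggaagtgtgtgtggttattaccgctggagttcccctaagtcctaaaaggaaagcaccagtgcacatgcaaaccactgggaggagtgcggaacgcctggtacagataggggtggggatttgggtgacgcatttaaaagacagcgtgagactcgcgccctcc
NFKBIA, chr14:35404750-35404949, strand -: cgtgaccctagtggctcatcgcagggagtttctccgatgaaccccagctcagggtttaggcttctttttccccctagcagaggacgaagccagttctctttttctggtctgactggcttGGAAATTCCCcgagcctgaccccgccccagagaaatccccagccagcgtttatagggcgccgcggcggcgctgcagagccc
B2M, chr15:44711317-44711516, strand +: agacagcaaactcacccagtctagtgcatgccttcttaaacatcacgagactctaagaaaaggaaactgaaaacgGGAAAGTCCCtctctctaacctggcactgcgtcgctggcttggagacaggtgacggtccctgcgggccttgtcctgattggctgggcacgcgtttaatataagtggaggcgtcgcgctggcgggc
The motif, searched on both strands, lay in the 300 bases around the start of 11 of the 21 NF-kB list genes with a promoter in the table (52.4%) and of 5 of 12 genes of MHC class I presentation (41.7%). Of all 13246 promoters matched, 8.71% held it, as did 14.3% of those of genes that rose at least 4-fold. For genes that fell at least 4-fold the share was 10.5%. Among the searched lists that mostly fell, it ran from 0% (G2 and mitosis) to 17.1% (DNA replication). A match is a description of letters and not a bound site.

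The inhibitors and feedback genes of the pathway rose together. BIRC3, a ubiquitin ligase that restrains cell death downstream of tumour necrosis factor receptors, stood at 83.8, 80.5 and 83.2 CPM at 24 h and 901, 906 and 971 CPM at 48 h, a log2 change of 3.49 (SE 0.09, adjusted p 2.5e-17). TNFAIP3, the deubiquitinase A20 that shuts the pathway down, stood at 23.9, 23.6 and 23.7 CPM at 24 h and 217, 212 and 227 CPM at 48 h (3.20, SE 0.07, adjusted p 9.3e-19). NFKBIA went from 108, 106 and 104 to 363, 367 and 369 CPM (1.79, SE 0.05, adjusted p 8.2e-17). In each of these genes the lowest 48 h library was above the highest 24 h library. Of the subunits, RELB rose from 13.6, 13.4 and 12.8 to 57.1, 53.9 and 54.9 CPM (2.06) and NFKB2 from 63.6, 64.6 and 62.5 to 184, 179 and 188 CPM (1.53). NFKB1 changed little, from 96.3, 89.9 and 90.8 to 100.4, 100.4 and 99.5 CPM. Its log2 change of 0.12 had an adjusted p of 0.049 and did not pass in 9 of 17 other fits. RELA did not pass (0.12, adjusted p 0.057), although it passed in 5 of those fits.

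Secreted products of the list also rose. SAA1, an acute-phase protein, had 37.4, 37.3 and 38.5 CPM at 24 h and 309, 309.8 and 337 CPM at 48 h (3.08); it has a near-identical neighbour, SAA2, so its level is uncertain. C3, the central complement protein, had 438, 419 and 411 CPM at 24 h and 1539, 1533 and 1582 CPM at 48 h (1.88). IL32, a cytokine of epithelial inflammation, had 2.67, 2.29 and 2.56 CPM at 24 h and 29.1, 28.2 and 30.2 CPM at 48 h (3.54). Each of these was higher in every 48 h library. The neutrophil chemokine CXCL1 had 0.844, 1.06 and 0.667 CPM at 24 h and 13.7, 12.6 and 14.7 CPM at 48 h (3.99), and CCL20, which attracts lymphocytes and dendritic cells, had 0.582, 0.417 and 0.57 CPM at 24 h and 4.03, 4.39 and 5.09 CPM at 48 h (3.10). CXCL8 rose but was still near 1 CPM, with 0.547, 0.442 and 0.308 CPM at 24 h and 0.957, 1.22 and 1.3 CPM at 48 h (1.42). Smaller rises were seen for IL1A (1.21) and the leukocyte adhesion receptor ICAM1 (1.99). PTGS2, the inducible cyclooxygenase, was the only member called lower, from 2.32, 1.93 and 1.43 to 1.26, 1.13 and 1.53 CPM. Its libraries overlapped, its adjusted p was 0.049, and 11 of 17 other fits did not pass it.

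**Figure D2:**
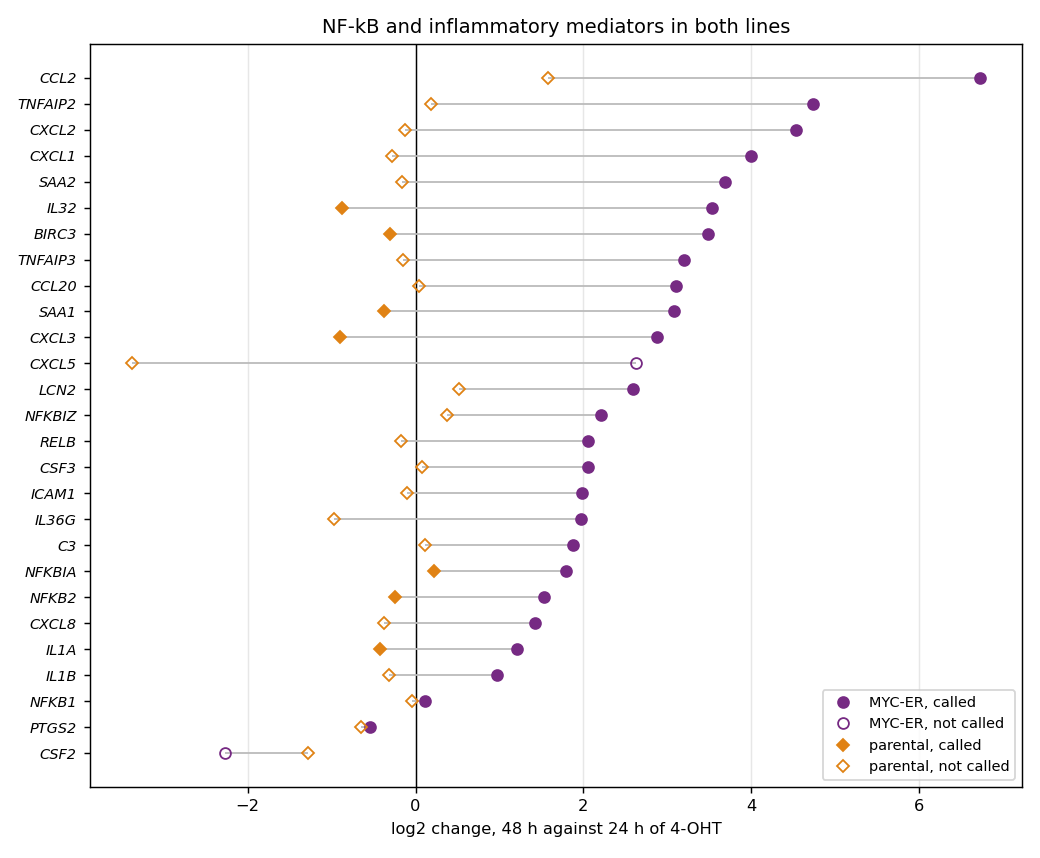
Log2 change from 24 h to 48 h of 4-OHT for the 27 tested genes of NF-kB and inflammatory mediators, in MYC-ER cells (circles) and parental cells (diamonds); filled marks passed an adjusted p of 0.05. The MYC-ER median is 2.21 and the parental median -0.17, and 24 filled MYC-ER circles lie right of 0.

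MHC class I molecules show fragments of the cell's own proteins to T cells, and need B2M as a light chain, TAP transporters to load peptides and immunoproteasome subunits to cut them. Of 15 genes of this pathway 11 rose and 2 fell (PSMB10 and TAP2), with a median log2 change of 0.71. PSMB9, an immunoproteasome subunit, went from 1.89, 1.98 and 1.97 to 14, 14.7 and 15.4 CPM (2.92, SE 0.10, adjusted p 1.1e-15). TAP1 went from 53.3, 53.3 and 50.1 to 149.7, 147 and 148 CPM (1.5) and TAPBP, which bridges TAP and class I molecules, from 89.1, 88 and 86.1 to 269, 269 and 274 CPM (1.63). B2M had 430.2, 431 and 435 CPM at 24 h and 708, 711 and 705 CPM at 48 h (0.71). For these 4 genes the 2 sets of libraries were apart. HLA-F (1.74), HLA-B (1.06) and HLA-C (0.42) were called higher, but they are near-identical to one another and counts may be shared among them. TAP2, the partner of TAP1, fell from 111, 111 and 104 to 73.8, 76.8 and 76.5 CPM (-0.52).

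Interferon-stimulated genes did not move one way, with 7 of 31 higher, 13 lower and a median of -0.19. Over all genes 28.2% were called higher and 25.5% lower. IRF1, a factor that both interferon and NF-kB induce, rose from 13.9, 14.3 and 14.6 to 70.8, 71.9 and 70.5 CPM (2.31, SE 0.06, adjusted p 3.4e-17). IFIT2 and IFIT3 rose with log2 changes of 1.59 and 1.45. IFI27 (-1.61), IFI6 (-1.49) and ISG15 (-0.74) fell.

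All 40 tested genes of DNA replication fell, each of them at least 2-fold, beside 25.5% of all genes called lower. Their median log2 change was -2.13. These genes are switched on by E2F proteins at the end of G1, and MCM proteins form the helicase that opens the DNA. The promoter of MCM6 is shown because it holds the E2F letters TTTGGCG 2 times, in capitals.
MCM6, chr2:135876444-135876643, strand -: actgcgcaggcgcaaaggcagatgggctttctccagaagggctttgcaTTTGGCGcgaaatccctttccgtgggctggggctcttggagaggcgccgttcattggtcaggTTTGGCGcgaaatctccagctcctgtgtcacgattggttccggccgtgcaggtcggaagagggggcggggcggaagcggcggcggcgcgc
The letters TTTGGCG, on either strand, lay in 12 of 35 replication promoters in the table (34.3%) and in 2.72% of all. MCM6 stood at 171, 160.4 and 160.3 CPM at 24 h and 27, 24.5 and 24.5 CPM at 48 h, a log2 change of -2.69 (SE 0.08, adjusted p 5.5e-17). MCM2 went from 219, 210.0 and 202 to 45.6, 44.7 and 43.7 CPM (-2.23). PCNA, the clamp that holds polymerases on DNA, went from 181, 177 and 172 to 49.1, 47.1 and 45 CPM (-1.91), and CDC6, which loads MCM proteins, from 61.6, 59.7 and 60.6 to 9.8, 9.66 and 8.9 CPM (-2.68). The 24 h and 48 h libraries of all 4 genes were apart. Among E2F and RB proteins 15 of 18 fell and 3 rose (LIN37, TFDP2 and RBL2), with a median of -0.79; without MYC-ER 48 h replicate 3 only 1 of the rises passed. E2F1, the activator of this programme, went from 19.3, 21.9 and 21.8 to 2.68, 2.27 and 2.61 CPM (-3.06, SE 0.12, adjusted p 8e-15). RB1 itself, the repressor of E2F1, fell from 96.7, 86.8 and 87.3 to 61.7, 63.2 and 62.8 CPM (-0.53, adjusted p 0.002). Its relative RBL1 also fell (-1.38). LIN37, which did not pass in 2 of 17 other fits, had a log2 change of 0.39. CCNE1 fell with CCNE2, from 22.8, 21.1 and 20.6 to 5.93, 5.83 and 4.9 CPM (-1.95).

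All 41 tested genes of G2 and mitosis fell, 40 of them at least 2-fold, with a median log2 change of -1.63. They are known to share an element called the CHR, through which the DREAM complex represses them in resting cells. The promoter of MKI67 is given since it carries the CHR letters TTTGAA 2 times, in capitals.
MKI67, chr10:128126424-128126623, strand -: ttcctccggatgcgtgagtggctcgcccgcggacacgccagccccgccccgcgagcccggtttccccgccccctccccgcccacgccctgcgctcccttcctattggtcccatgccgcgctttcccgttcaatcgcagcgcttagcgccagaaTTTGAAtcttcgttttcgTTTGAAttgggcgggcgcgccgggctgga
Those letters, on either strand, were found in 23 of 34 promoters of the list (67.6%) and in 10.4% of all. The CCAAT letters bound by NF-Y were found in 26 of 34 (76.5%) and in 36.1% of all. MKI67, the standard proliferation marker, stood at 381, 364 and 369.6 CPM at 24 h and 98.6, 102 and 92.1 CPM at 48 h, a log2 change of -1.93 (SE 0.08, adjusted p 6.3e-15). CCNB1, the mitotic cyclin, had 188, 185 and 189 CPM at 24 h and 51.4, 54.7 and 50.8 CPM at 48 h (-1.84), and its kinase CDK1 had 114, 109 and 114 CPM at 24 h and 29.4, 29.7 and 26.5 CPM at 48 h (-1.98). MAD2L1 of the spindle checkpoint and the kinesin KIF20A fell most among the list (-2.24 and -2.22). BIRC5 (-2.20), FOXM1 (-1.75), PLK1 (-1.85), AURKA (-1.63) and TOP2A (-1.41) also fell. None of these genes had overlapping libraries, which was also so for 68% of all genes tested. The fall did not bring them to the level of cultures without 4-OHT: MKI67 averaged 1.74 CPM at 0 h and 97.6 CPM at 48 h.

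Replication-dependent histone genes, whose transcripts mostly lack poly(A) tails and are poorly sampled by this kind of library, were called higher for 8 of 30 and lower for 4. The shares over all genes were 28.2% higher and 25.5% lower. H1-2 rose (1.56) from 2609 to 2788 counts per library at 24 h. H3C8 fell (-2.64) from a lower level of 496 to 569 counts. Near-identical histone copies make single genes uncertain. Among inhibitors of cyclin-dependent kinases and other G1 brakes 8 of 15 rose and 3 fell (RBL1, CDKN2C and RB1). KLF4, a factor of epithelial arrest, rose from 6.73, 6.56 and 6.29 to 24.1, 24.1 and 23.1 CPM (1.86) and CDKN1C from 27.3, 24.8 and 25.2 to 66.3, 60.9 and 53.4 CPM (1.22). CDKN1B rose by 0.33. CDKN1A, the main p53-induced inhibitor, did not pass, with 185, 184 and 182 CPM at 24 h and 199, 193 and 192 CPM at 48 h (0.08, adjusted p 0.22); with the GC trend removed its sign turned. CCND1, the G1 cyclin, fell from 73.2, 63.4 and 62.4 to 41.8, 41 and 40.8 CPM (-0.69).

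Ribosome biogenesis is the group most often named as a MYC target. Of 30 such genes 29 fell and none rose, with a median log2 change of -0.86, and 12 fell at least 2-fold. The promoter of UTP20, a nucleolar factor of the small ribosomal subunit, ends close to its start with the E-box CACGTG, shown in capitals.
UTP20, chr12:101279905-101280104, strand +: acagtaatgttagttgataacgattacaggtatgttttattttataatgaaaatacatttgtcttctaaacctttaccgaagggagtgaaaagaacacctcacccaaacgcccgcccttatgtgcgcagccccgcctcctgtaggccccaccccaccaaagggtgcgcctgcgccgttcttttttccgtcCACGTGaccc
The letters CACGTG lay in 8 of 25 promoters of the list (32%) and in 9.61% of all. For genes that fell at least 2-fold the share was 9.93%, and at least 4-fold 9.66%, both near that of all promoters. UTP20 stood at 60.3, 54 and 56 CPM at 24 h and 25.2, 25.8 and 25.1 CPM at 48 h (-1.16, SE 0.09, adjusted p 1.5e-10). LYAR and NOLC1, nucleolar proteins, fell most (-1.74 and -1.52). NCL, nucleolin, had 1447, 1390 and 1385 CPM at 24 h and 648, 635 and 635 CPM at 48 h (-1.14), and the rRNA methylase FBL had 296, 288 and 293 CPM at 24 h and 196, 197 and 193 CPM at 48 h (-0.58). Every 48 h library of these genes was the lower. NPM1 was the member that did not pass, with 2350, 2245 and 2275 CPM at 24 h and 2466, 2441 and 2378 CPM at 48 h (0.08, adjusted p 0.26). It passed as higher in 3 of 17 other fits. Cytosolic ribosomal proteins went the other way. Of 51, 44 rose and none fell, with a median of 0.30 and no change of 2-fold. RPS19, which rose most, had 618, 609.9 and 619.7 CPM at 24 h and 859.6, 866 and 839 CPM at 48 h (0.47), and RPLP0 had 2096, 2095 and 2095 CPM at 24 h and 2601, 2609 and 2575 CPM at 48 h (0.31). Many processed pseudogenes of ribosomal protein genes exist, so single levels are uncertain.

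Nucleotide and one-carbon synthesis fell in 19 of 23 genes, with none higher and a median of -0.91. ODC1, the rate-limiting enzyme of polyamine synthesis and a textbook MYC target, went from 363, 342 and 330.3 to 117, 116 and 112 CPM (-1.59, SE 0.06, adjusted p 3.7e-15). CAD, which starts pyrimidine synthesis, went from 341, 332 and 324 to 145, 144 and 140.5 CPM (-1.21). PRPS1, which makes the sugar phosphate of all nucleotides, also fell (-1.46). Both sets of libraries were apart for each. The 4 members that did not pass were IMPDH2, PHGDH, SHMT1 and SHMT2. Most splicing factors fell too. Of 21 hnRNP genes 17 fell and 1 rose (HNRNPH1), with a median of -0.47, and of 14 SR protein genes 9 fell and 1 rose (SRSF5), with a median of -0.32. HNRNPA2B1 had 1152, 1139 and 1181 CPM at 24 h and 542, 532 and 524 CPM at 48 h (-1.12) and TRA2B had 209, 209.9 and 204 CPM at 24 h and 96.4, 95.9 and 92.8 CPM at 48 h (-1.13). SRSF5 had 172, 208 and 211 CPM at 24 h and 314, 303 and 325 CPM at 48 h (0.68).

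Heat shock chaperones fell in 14 of 16 genes, with HSPB1 higher, HSF1 not called and a median of -1.02. HSP90AA1, a chaperone that binds steroid receptors and many kinases, had 2719, 2559 and 2562 CPM at 24 h and 589.9, 577 and 558 CPM at 48 h (-2.18, SE 0.06, adjusted p 1.8e-17). HSPA8, the constitutive HSP70, had 2664, 2539 and 2548 CPM at 24 h and 971, 956 and 911 CPM at 48 h (-1.45), and HSP90AB1 had 2321, 2230 and 2209 CPM at 24 h and 1233, 1227 and 1175 CPM at 48 h (-0.90). All 3 were lower in each 48 h library than in any 24 h library. HSPA1A fell too (-1.57), though its copy HSPA1B makes its level uncertain. HSPB1 rose from 445, 423 and 409.8 to 596, 555 and 539.6 CPM (0.40). The unfolded protein response had 5 higher (3 without MYC-ER 24 h replicate 2) and 10 lower genes of 20 and a median of -0.14. HERPUD1, of endoplasmic reticulum degradation, rose (1.01), whereas its central chaperone HSPA5 did not pass (0.10, adjusted p 0.18; it passed in 4 of 17 other fits). The ATF4 amino acid stress response was also mixed, with 7 higher and 11 lower of 25 and a median of -0.18. Of all genes 28.2% were called higher and 25.5% lower. CEBPB rose from 28.1, 23.9 and 24.1 to 99.1, 98 and 92.7 CPM (1.93) and DDIT3 rose (1.32), while the glutamate-cystine carrier SLC7A11 (-0.94) and ASNS (-0.79) fell.

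**Figure D3:**
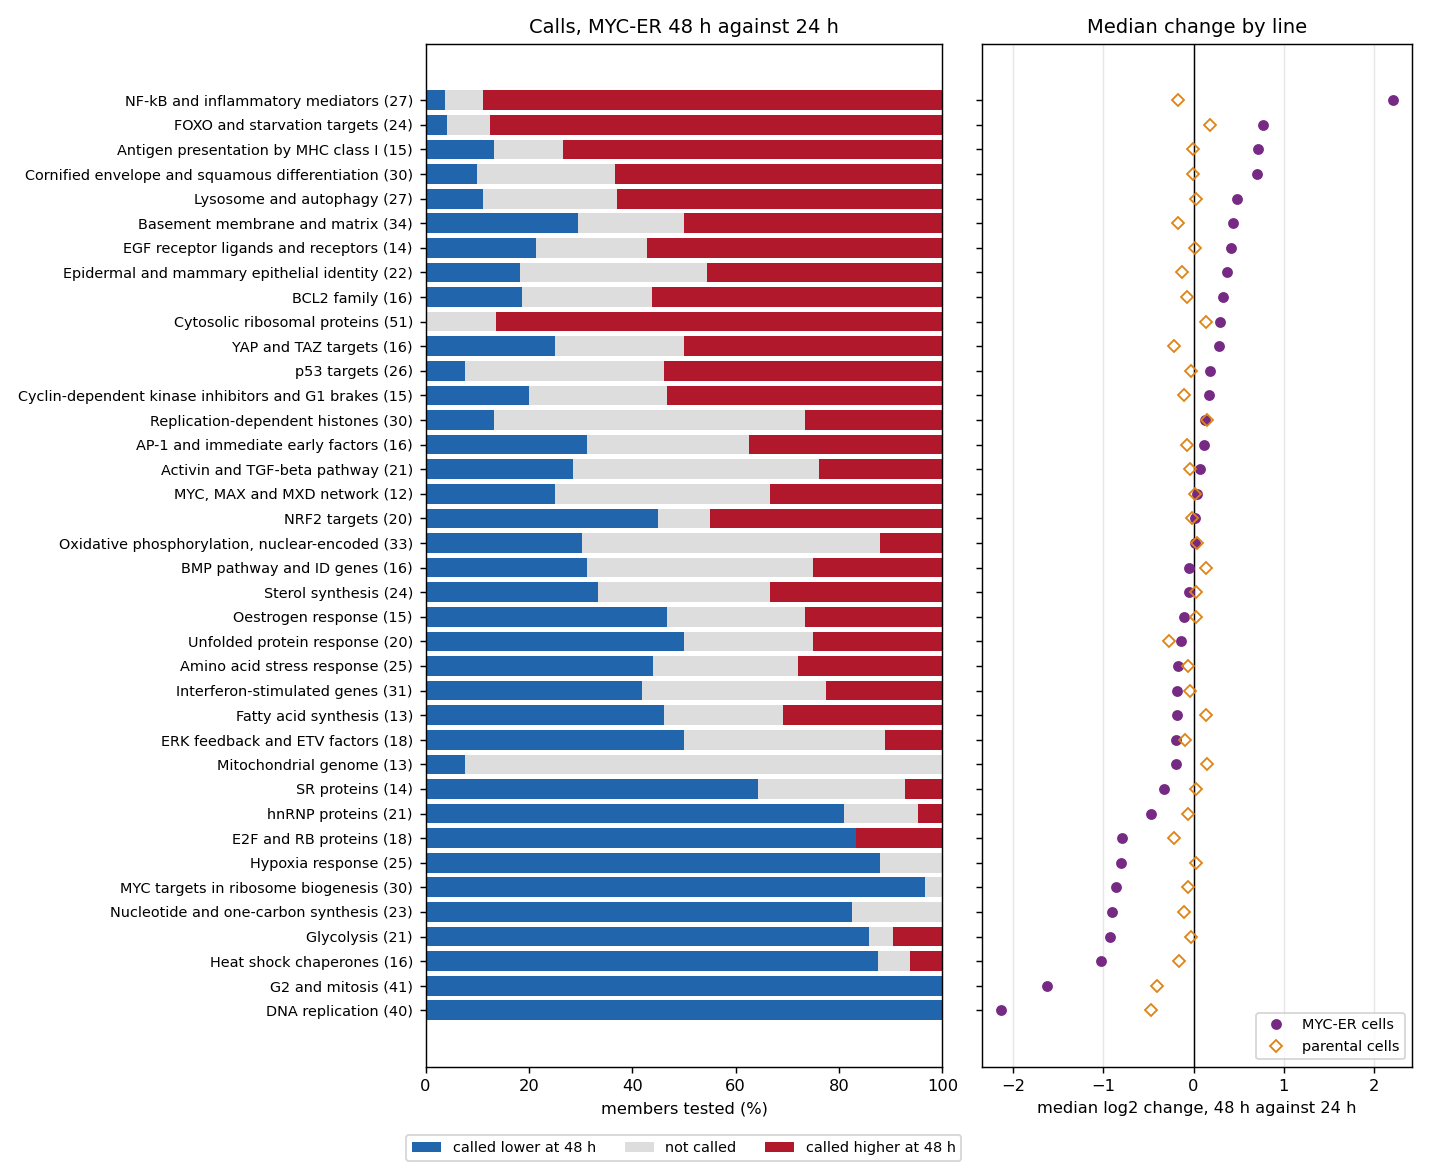
For 38 gene lists (members tested in brackets), the left panel gives the percent of members called lower (blue), not called (grey) and called higher (red) at 48 h against 24 h in MYC-ER cells, and the right panel the median log2 change in MYC-ER (circles) and parental cells (diamonds). DNA replication is lowest at -2.13 and NF-kB and inflammatory mediators highest at 2.21, while parental medians lie between -0.47 and 0.18.

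Hypoxia-response genes fell in 22 of 25 cases and none rose, with a median log2 change of -0.81. CA9, a carbonic anhydrase that marks hypoxia, went from 219.8, 217 and 198 to 35.7, 36 and 32.3 CPM (-2.61, SE 0.35, adjusted p 1.5e-06). ANGPTL4, a secreted inhibitor of lipoprotein lipase, went from 33.8, 32.5 and 28.4 to 4.25, 4.24 and 4.22 CPM (-2.90), and NDRG1 from 1814, 1718 and 1628 to 766, 746 and 754 CPM (-1.19). No overlap was seen in these genes, nor in 68% of all genes tested. VEGFA, which draws blood vessels, went from 174, 192 and 177 to 122, 121 and 124 CPM (-0.56). Glycolysis fell in 18 of 21 genes, with a median of -0.93, and PFKM and HK1 rose. LDHA, which turns pyruvate into lactate, had 2775, 2595 and 2552 CPM at 24 h and 881, 852 and 827 CPM at 48 h (-1.63, SE 0.07, adjusted p 5.9e-14). The glucose carrier SLC2A1 had 466, 441 and 424 CPM at 24 h and 162, 159.7 and 152 CPM at 48 h (-1.49) and PGK1 had 1090, 1034 and 1006 CPM at 24 h and 377, 374 and 367 CPM at 48 h (-1.49). HK2, PKM and GAPDH also fell (-0.76, -0.79 and -0.50). GAPDH, often taken as a constant reference, went from 5728, 5661 and 5508 to 4076, 4020 and 3856 CPM. The hypoxia core ACGTG, which every E-box CACGTG contains, lay in 11 of 22 hypoxia promoters (50%) and 8 of 19 glycolysis promoters (42.1%), against 25.7% of all. In the other lists searched its share ran from 16.7% (MHC class I presentation) to 44% (ribosome biogenesis). Genes that fell at least 2-fold had 26.9% and those that fell at least 4-fold 26.5%, near the share of all.

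Of 33 nuclear-encoded genes of oxidative phosphorylation 4 rose and 10 fell, with a median of 0.02 whose sign turned in other fits. Over those fits 4 to 10 rose and 6 to 15 fell, and CYCS, cytochrome c, fell most (-0.86). Of 13 genes of the mitochondrial genome 12 did not pass, and MT-CO3 was called lower (-0.32, adjusted p 0.032) but not in 10 of 17 other fits. The median of these 13 was -0.20, and the fit of only the groups compared, with or without a replicate block, called 12 of them lower and the remaining 1 higher. Sterol synthesis had 8 genes higher, 8 lower (13 by the replicate block with only the groups compared) and 8 not called of 24, and no change of 2-fold. LSS rose (0.85) while DHCR7 (-0.73) and FDPS (-0.71) fell. Fatty acid synthesis had 4 higher and 6 lower of 13, with ACSS2, the cytosolic counterpart of ACSS1, higher (0.93) and ACLY, which makes acetyl-CoA from citrate, lower (-0.86). SREBF1, the regulator of that pathway, rose (0.38).

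FOXO factors are held out of the nucleus by growth-factor signalling through AKT and, when free, raise genes of atrophy, autophagy and cell death. Of 24 FOXO and starvation targets 21 rose and 1 fell (SESN3), with a median log2 change of 0.77. The list was still mostly under its level in cultures without 4-OHT. Against 0 h, 2 of its genes were called higher at 48 h, 17 lower and 5 were not called, with a median of -0.42. FBXO32, a ubiquitin ligase known from muscle wasting, had 11.8, 11.4 and 12.4 CPM at 24 h and 96.8, 97.3 and 99.6 CPM at 48 h (3.04, SE 0.07, adjusted p 4.1e-18). FOXO1 went from 60.1, 55.2 and 55.1 to 111, 115 and 113 CPM (0.99) and FOXO3 from 99.7, 91.7 and 86.5 to 152, 151 and 152 CPM (0.71). PINK1, which flags damaged mitochondria, had 40.1, 38.1 and 38.1 CPM at 24 h and 93.3, 93 and 89.4 CPM at 48 h (1.24). All 4 had separate libraries, as did 68% of all genes tested. SESN3 fell (-0.44) and did not pass with the GC trend removed.

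In the BCL2 family 9 of 16 genes rose and 3 fell (BCL2A1, BCL2 and BOK), with a median of 0.33. Proapoptotic BMF, which responds to loss of attachment, had 1.81, 1.91 and 2.29 CPM at 24 h and 15.6, 15.3 and 15.1 CPM at 48 h (2.94, SE 0.12, adjusted p 2.1e-14). BBC3, also called PUMA, rose from 7.33, 7.48 and 7 to 18.4, 18.1 and 18.7 CPM (1.34), and BCL2L11, also called BIM, rose by 0.47. The survival genes MCL1 and BCL2L1 rose as well, MCL1 from 411, 378 and 389 to 588, 589 and 561 CPM (0.56) and BCL2L1 from 27.8, 26.7 and 27.1 to 49.3, 49.5 and 46.3 CPM (0.83). BCL2 fell from 6.32, 5.61 and 4.93 to 1.23, 0.885 and 0.966 CPM (-2.45). Members of both the death and the survival side were thus higher at 48 h in all libraries. Of 26 p53 targets 14 rose and 2 fell (AEN and TRIAP1), with a median of 0.19. TP53INP1 rose (1.12), MDM2 rose by 0.26 and GDF15 by 0.75.

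Of 27 lysosome and autophagy genes 17 rose and 3 fell, GLA and CTSL among them, with a median of 0.48. Against 0 h, 6 genes of this list were called higher at 48 h, 13 lower and 8 were not called. SQSTM1, the cargo receptor p62, had 322, 319.6 and 317 CPM at 24 h and 1264, 1258 and 1237 CPM at 48 h (1.97, SE 0.06, adjusted p 8.2e-17). ULK1, the kinase that starts autophagy, had 62.9, 69.3 and 67.9 CPM at 24 h and 120.5, 118 and 119 CPM at 48 h (0.83), and MAP1LC3B had 44, 42.1 and 43.5 CPM at 24 h and 70.0, 71.1 and 69.2 CPM at 48 h (0.70). TFEB, the master factor of lysosomes, rose by 0.58. The 48 h libraries of these genes were all above the 24 h ones. NRF2 targets were split, with 9 higher and 9 lower of 20. FTH1 and HMOX1 (1.59) rose, and SRXN1 (-1.11) and NQO1 (-0.43) fell. AKR1C1 rose (1.02), a member of a family of close copies.

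**Figure D4:**
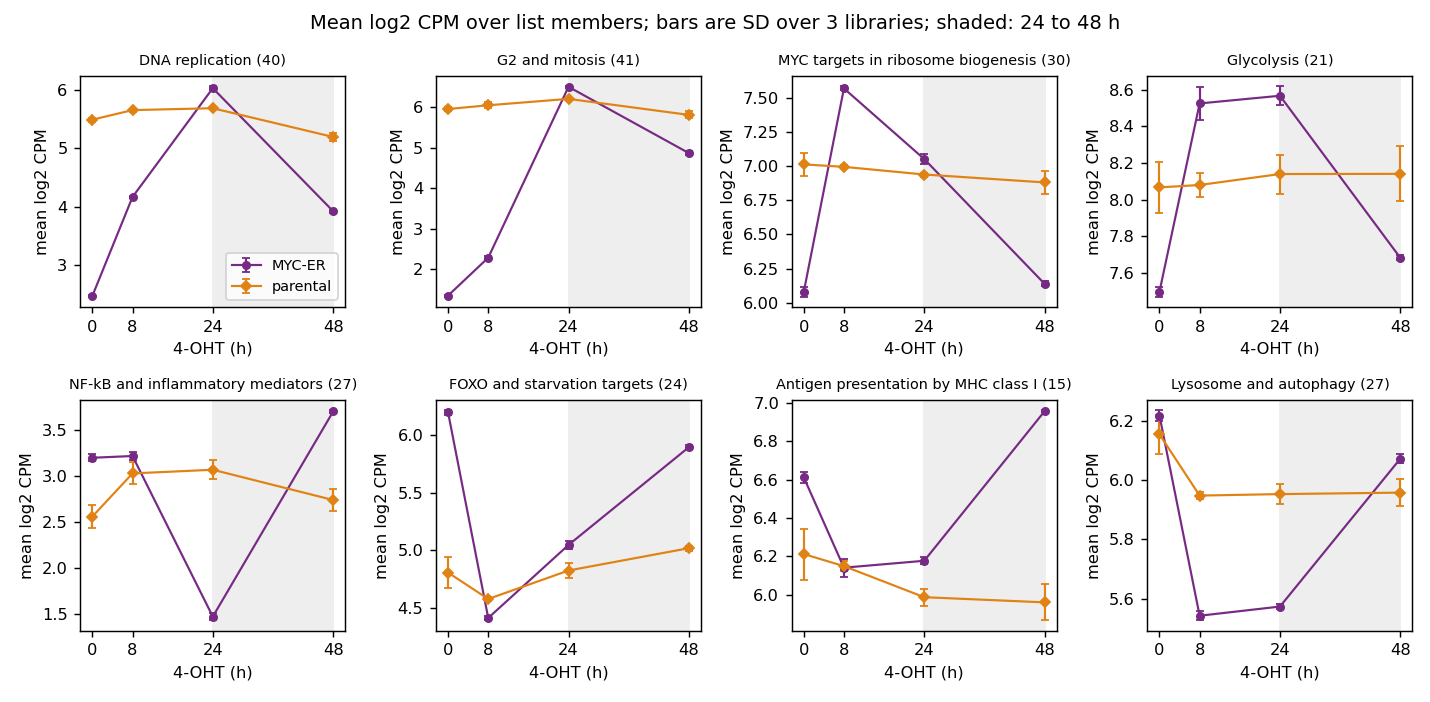
Mean log2 CPM over the members of 8 lists at 0, 8, 24 and 48 h of 4-OHT in MYC-ER (circles) and parental cells (diamonds), bars showing the SD over 3 libraries and grey the step from 24 to 48 h. DNA replication in MYC-ER cells runs 2.47, 4.17, 6.03 and 3.92, and NF-kB and inflammatory mediators 3.20, 3.22, 1.47 and 3.70.

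The step can be placed on the whole course by the mean log2 CPM of each list. For DNA replication in MYC-ER cells this mean was 2.47 without 4-OHT, then 4.17 (8 h), 6.03 (24 h) and 3.92 (48 h), so that 24 h was its highest time. G2 and mitosis stood at 1.34, 2.28, 6.50 and 4.86. NF-kB and inflammatory mediators were lowest at 24 h, with 3.20, 3.22, 1.47 and 3.70. Their summed level, which the most abundant members set, was 5678 to 5818 CPM at 0 h and 4044 to 4246 CPM at 48 h. Against 0 h, 13 of them were called higher at 48 h, 5 lower and 9 were not called. Ribosome biogenesis was highest at 8 h and at 48 h stood near its level without 4-OHT, with 6.08, 7.57, 7.05 and 6.14. Parental cells changed less over the same times, with 5.49, 5.66, 5.69 and 5.20 for DNA replication. CSF1 averaged 54.4 CPM without 4-OHT, then 3.64, 4.49 and 128 CPM over the same times. KDR averaged 39.1, 0.258, 1.53 and 25.6 CPM. CHI3L1 was low without 4-OHT as well, at 0.558 CPM, so that its 48 h mean of 13 CPM was its highest. These orders share the 24 h and 48 h libraries with the step itself and are given as levels.

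ERK feedback genes and ETV factors are read as gauges of signalling from growth-factor receptors. Of 18, 9 fell and 2 rose (DUSP4 and EPHA2), with a median of -0.19. ETV4 fell from 17.1, 16.3 and 16.4 to 1.97, 1.8 and 1.79 CPM and SPRY1 fell as well (-1.59). DUSP6, the phosphatase most tied to ERK, had 15.2, 11.4 and 12.1 CPM at 24 h and 9.04, 9.31 and 10.4 CPM at 48 h (-0.43, adjusted p 0.00048). EPHA2 passed only narrowly (0.18, adjusted p 0.041), and 11 of 17 other fits did not pass it. AP-1 and immediate early factors had 6 higher and 5 lower of 16. MAFF (1.36) and JUNB (0.82) rose, EGR1 (-0.71), FOSB (-0.97) and FOSL1 (-0.43) fell, and JUN did not pass (0.09). In the EGF family 8 of 14 rose and NRG1 (-1.60), EGF and NRG4 fell. The receptor ERBB3 rose (0.87), as did ERRFI1, which dampens EGFR (0.95), and EREG (0.65). EGFR did not pass (0.15, adjusted p 0.23; it passed in 3 of 17 other fits).

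Basement membrane and matrix genes had 17 higher and 10 lower of 34, with a median of 0.44. That median was 0.17 without MYC-ER 24 h replicate 2 and 0.18 without MYC-ER 48 h replicate 1. With a minimum of 10 counts in every library it was 0.74, with 6 genes lower. MMP14, a collagenase of the cell surface, had 138, 136 and 137 CPM at 24 h and 373, 364 and 362 CPM at 48 h (1.42, SE 0.06, adjusted p 4.6e-14), and its partner TIMP2 had 27.4, 25 and 26.3 CPM at 24 h and 89.4, 89.8 and 88.2 CPM at 48 h (1.76). MMP2, which these activate and restrain, had 2.91, 2.42 and 2.85 CPM at 24 h and 10.7, 10.9 and 10.2 CPM at 48 h (1.96). All 3 were higher in every 48 h library. The secreted collagenase MMP1 went the other way, from 1.7, 1.56 and 1.58 to 0.0288, 0.033 and 0.0536 CPM (-5.36, SE 0.21, adjusted p 7.1e-15), with 5 to 9 counts per library at 48 h. Its neighbour in function MMP10, a stromelysin, had 248 to 291 counts per library at 24 h and 0 to 2 at 48 h, under the 3 counts taken as the limit. MMP9 fell from 2.49, 2.15 and 2.07 to 0.3, 0.152 and 0.215 CPM (-3.32). Among activin and TGF-beta genes 5 rose and 6 fell of 21, the rises being 3 without MYC-ER 48 h replicate 1 and 8 with upper-quartile scaling or the GC trend removed. With 28.2% of all genes higher and 25.5% lower, these counts do not set the list apart. TGFB1 had 108, 105 and 94.2 CPM at 24 h and 53.1, 49.3 and 45.9 CPM at 48 h (-1.05). SMAD3 rose by 0.45. Of 16 YAP and TAZ targets 8 rose by less than 2-fold and F3, NT5E, TEAD4 and CCN1 fell by 2-fold or more, F3 from 22.7, 20.7 and 18.7 to 6.36, 6.67 and 7.19 CPM (-1.62). In the BMP pathway 4 of 16 genes rose and 5 fell, beside 28.2% and 25.5% of all genes. ATOH8 (2.01), BMP2 (1.31), BMP4 and GDF5 rose, and ID2 (-0.61), ID3 (-0.51), SMAD6, SMAD9 and BMPR1A fell.

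Cornified envelope and squamous differentiation genes rose in 19 of 30 cases and fell in 3 (FLG, KRT6A and S100A9), with a median of 0.71. Their summed level, which the most abundant members set, did not rise. It was 3476 to 3633 CPM at 24 h and 3460 to 3615 CPM at 48 h, against 12530 to 13230 CPM at 0 h. PPL, a plakin of the envelope, had 91.1, 93 and 91 CPM at 24 h and 209, 208 and 203 CPM at 48 h (1.17, SE 0.09, adjusted p 2.8e-10). S100A7 rose from low levels (2.84), and SPRR1B rose by 0.41, although it did not pass without MYC-ER 48 h replicate 3 (adjusted p 0.071). FLG, filaggrin, fell from 2.89, 1.79 and 2.18 to 0.784, 0.502 and 1.05 CPM (-1.55). KRT16 had 64.7, 62.6 and 67 CPM at 24 h and 146, 132 and 145 CPM at 48 h (1.12) and KRT17 had 518, 483 and 506 CPM at 24 h and 1205, 1131 and 1099 CPM at 48 h (1.19); KRT6A, their usual partner, fell (-0.65). These keratins have close copies, which makes their single levels uncertain. KRT10, the keratin of suprabasal epidermis, had 75, 80.4 and 97.6 CPM at 24 h and 101, 96.7 and 106 CPM at 48 h (0.26, adjusted p 0.026), and 5 of 17 other fits did not pass it. Its libraries overlapped between the times. KRT10 averaged 5949 CPM in MYC-ER cultures without 4-OHT. Of 22 epithelial identity genes 10 rose and 4 fell (FOXA1, EPCAM, KRT14 and ITGA6), with a median of 0.38. CLDN1, a tight-junction protein, had 9.51, 8.74 and 8.89 CPM at 24 h and 39.3, 41.9 and 39.7 CPM at 48 h (2.16), and KRT15 of basal progenitors had 745, 803 and 827 CPM at 24 h and 1880, 1876 and 1929 CPM at 48 h (1.26). CDH1, E-cadherin, had 119, 109 and 112 CPM at 24 h and 175, 169 and 171 CPM at 48 h (0.60), and MUC1 had 24.9, 25.4 and 25 CPM at 24 h and 56.4, 56.9 and 62.1 CPM at 48 h (1.22). All 4 were higher at 48 h without overlap, and 68% of all genes tested had no overlap. KRT14 fell from 1637, 1593 and 1672 to 1040, 929 and 885 CPM (-0.78) and EPCAM from 77.8, 77.3 and 72.3 to 38.6, 39.8 and 38.3 CPM (-0.96).

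MYC itself had 329.5, 322 and 312 CPM at 24 h and 244, 247 and 253 CPM at 48 h (-0.37, SE 0.07, adjusted p 6.4e-05), lower at 48 h in every library. The part of the fusion's own reads in this level was not tested. Of its network, MLXIPL, a glucose-sensing relative of MYC partners, rose from 0.378, 0.84 and 0.564 to 7.09, 7.07 and 6.26 CPM (3.52), and MXD4, an antagonist, rose from 98, 102 and 96.7 to 159, 159 and 155 CPM (0.67). MLX and MNT (0.29) rose, and MXI1 (-0.45) and MXD1 (-0.26) fell. ESR1 stayed under 1 CPM and did not pass (0.93, adjusted p 0.098), although 2 of 16 other fits passed it. Of 15 oestrogen response genes 4 rose and 7 fell, beside 28.2% and 25.5% of all genes. GREB1 rose from 10.7, 9.39 and 10.3 to 42.5, 46.2 and 41.6 CPM (2.09), and STC2 fell from 125, 122 and 111 to 26.8, 28.5 and 27.5 CPM (-2.11). The rise of GREB1 did not start from its level without 4-OHT. Untreated MYC-ER libraries held 9030, 8988 and 8140 unscaled counts of it, the 8 h libraries 359, 347 and 399. In the 48 h libraries there were 7360, 6995 and 6979. Against 0 h, 7 genes of the list were called higher at 48 h, 4 lower and 4 were not called.

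The same step in parental cells gave 2927 calls (13.2% of the genes tested), 1426 higher (6.44%) and 1501 lower (6.77%), of which 259 (1.17%) were at least 2-fold. The median size of a called log2 change was 0.38 in parental and 0.71 in MYC-ER cells. Replicate values of both times did not overlap for 6514 genes (29.4%). The parental and MYC-ER steps share no library. Across all 22158 genes, which are not independent replicates, Spearman's rho between the 2 steps was 0.34. Of 2441 genes called in both lines, 2054 (84.1%) went the same way. The test of the difference between the steps passed for 8275 genes (37.3%), with 4027 more positive in MYC-ER cells (18.2%) and 4248 more negative (19.2%). Among the MYC-ER calls 7775 (65.3%) also passed this test.

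Replication and mitosis fell in both lines and by more in MYC-ER cells. In parental cells 39 of 40 DNA replication genes fell with a median of -0.47, and all 40 passed the test of the difference as more negative in MYC-ER cells. Of the G2 and mitosis genes 35 of 41 fell in parental cells, with a median of -0.41, and 40 were more negative in MYC-ER cells. MCM6 averaged 97.8 and 66 CPM in parental cells at 24 h and 48 h (log2 change -0.57), and the difference between the lines was -2.13 (adjusted p 1.1e-12). NF-kB and inflammatory mediators had 1 gene higher and 6 lower of 27 in parental cells, with a median of -0.17. NFKBIA was that 1 gene (0.22). Of the list, 22 genes were more positive in MYC-ER cells and none more negative. BIRC3 averaged 206 and 166 CPM in parental cells (-0.31, difference 3.80, adjusted p 4.4e-15). Ribosome biogenesis fell for 2 genes in parental cells, and 29 of 30 were more negative in MYC-ER cells. Hypoxia and glycolysis genes had parental medians of 0.02 and -0.03, with 20 of 25 and 18 of 21 genes more negative in MYC-ER cells. Cytosolic ribosomal proteins had no parental call and a parental median of 0.14. Only 3 of the 51 passed the test of the difference, so a separate behaviour of the lines was not shown for the other 48.

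**Figure D5:**
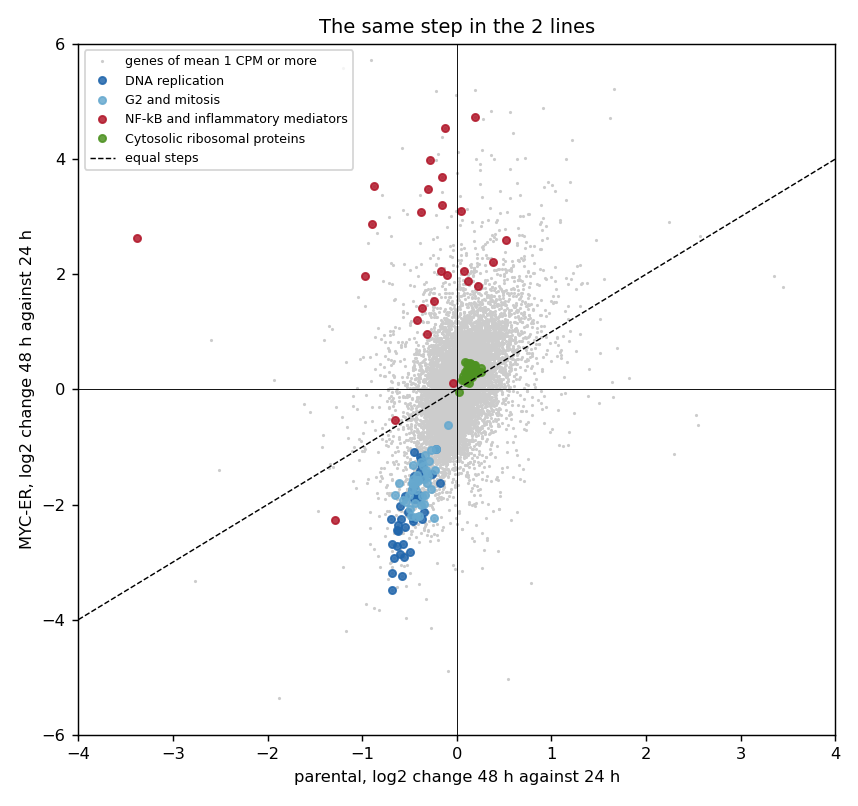
Log2 change from 24 h to 48 h in MYC-ER cells (vertical) against parental cells (horizontal) for the 13724 genes that averaged 1 CPM or more (grey, 16 outside the axes), with 4 lists in colour and a dashed line where both steps are equal. DNA replication lies low left, with medians of -0.47 and -2.13, and NF-kB and inflammatory mediators lie high, with medians of -0.17 and 2.21.

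Among genes of at least 10 CPM in 1 of the 4 groups, the largest differences between the lines included inflammatory and S-phase genes. ELF3 averaged 0.272 and 0.234 CPM in parental cells, and the difference between the lines was 5.41 (SE 0.35, adjusted p 1e-10). The other large positive differences were ACSS1 (5.00), CXCL2 (4.67) and TNFAIP2 (4.55). MMP1 fell in parental cells too, from 17.2 to 4.67 CPM (-1.88), and by more in MYC-ER cells (difference -3.48, adjusted p 1.1e-09). CCNE2 also fell in both (-0.82 in parental cells, difference -3.00). ETV4 and PPFIA4 did not pass in parental cells (0.05 and 0.27), and their differences were -3.21 and -3.37.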

How the data were processed

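RNA of 24 libraries was measured by poly(A)-selected, strand-specific sequencing with paired 150-base reads, per the labels' protocols. The deposited table holds estimated counts per gene that were already whole numbers, made by the authors with Trimmomatic 0.39, STAR and StringTie 2.1.3b on GRCh38, per the submitters' processing notes. StringTie derives counts from coverage, so limits of 3 counts are approximate. The annotation release, the strand setting and the treatment of reads that match several genes are not given in the sources used here. Of 60668 rows, 60295 matched the symbol table given and 286 more were named from GENCODE 29. After filterByExpr and TMM scaling, all 24 libraries entered 1 edgeR 4.0.16 fit (under R 4.3.3) that gives every group its own mean. Each step was then tested by the two-sided quasi-likelihood F test at 0.05, with Benjamini-Hochberg adjustment over 22158 genes. The common biological coefficient of variation was 0.151. CPM were computed on TMM-scaled totals; for their log2 values 2 prior counts were added. Gene changes are log2 fold changes of that fit. Tested on simulated data for this contrast (21522 genes), the fit recovered 73.7% of 2-fold and 78.8% of 4-fold changes, with 5 false calls. In that simulation all groups shared 1 mean per gene, only 99 genes of each size were changed, and the spread was that of the fit. Since 53.7% of genes were called in the real step, it cannot tell how many of those calls are false. Groups follow the sample titles. Same-numbered libraries did not deviate together (see the dependence on processing).

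Named genes are the 12 largest rises and 12 largest falls among called genes of at least 10 CPM without overlap, by the same rule over the 4 groups the 4 largest differences between lines each way, the 2 largest rises and falls in each list, the 5 most abundant genes changed at least 2-fold, and MYC, ESR1, MKI67, CCNB1, CCND1, CDKN1A, CDKN1B, KRT10 and CA9. Other list members named were chosen after their values were seen. Some genes that the rule selects are not reported here. The members and the 42 lists (857 genes tested) were written from general knowledge with earlier results of these data known, and no list was tested. Tried as alternatives were scaling by DESeq2's size factors, by the upper quartile or by totals only, no filter or a minimum of 10 counts per library, the Wald test of DESeq2 1.42.0, fits restricted to the compared groups, a replicate block, each library left out and, added after seeing the data, removal of GC or of GC and transcript length trends (lowess span 0.3). Promoters come from RefSeq (GRCh38.p14), with 13246 of 22103 unique symbols matched, 250 bases before to 50 after the start.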

Additional observations from a re-analysis of the deposited data

Results flagged for a closer look

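The step from 24 h to 48 h differed between MYC-ER and parental cells for 8275 genes by edgeR's test of the difference. Among genes of at least 10 CPM in 1 of the 4 groups and without overlap of the MYC-ER times, the largest positive differences (log2, MYC-ER step minus parental step) were 5.41 for ELF3, 5.00 for ACSS1, 4.67 for CXCL2 and 4.55 for TNFAIP2, and the largest negative ones -3.48 for MMP1, -3.37 for PPFIA4, -3.21 for ETV4 and -3.00 for CCNE2. Of the genes called in both lines, 387 moved in opposite directions and passed the test of the difference, 255 of them higher in MYC-ER and lower in parental cells and 132 the reverse. The 6 of these with the largest smaller step and at least 10 CPM in 1 group all rose in MYC-ER cells and fell in parental cells. IL32 averaged 2.51 and 29.1 CPM at 24 h and 48 h in MYC-ER cells and 6.45 and 3.52 CPM in parental cells (difference 4.41). DAPP1 averaged 1.31 and 10.4 CPM at 24 h and 48 h in MYC-ER cells and 3.94 and 2.4 CPM in parental cells (3.71). TRPV3, an ion channel of keratinocytes, averaged 0.674 and 2.48 CPM at 24 h and 48 h in MYC-ER cells and 12.7 and 7.36 CPM in parental cells (2.66). TRIML2 averaged 3.13 and 11.3 CPM at 24 h and 48 h in MYC-ER cells and 4.29 and 2.61 CPM in parental cells (2.57). AQP9, a channel for water and glycerol, averaged 4.76 and 10.2 CPM at 24 h and 48 h in MYC-ER cells and 13.4 and 5.29 CPM in parental cells (2.44). STEAP4, a metalloreductase that inflammation induces, averaged 0.671 and 1.84 CPM at 24 h and 48 h in MYC-ER cells and 14.6 and 7.43 CPM in parental cells (2.42). No group of 4 or more libraries exists, so single libraries were not tested for standing apart.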

How the results depend on the processing

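The number of MYC-ER calls ran from 10846 to 13591 over the alternatives that keep all libraries and from 10789 to 11120 when a MYC-ER library was left out, and no count over all genes for this step or for the difference between the lines moved by more than 1.5 times. The share of calls that were higher ran from 49.4% to 58.9%, the latter with upper-quartile scaling, which put the median of all genes at 0.142. Same-numbered libraries of the 2 times correlated at -0.179 to 0.0066 in MYC-ER and -0.141 to 0.061 in parental cells, so no pairing by number was seen. Deviations from means of only 3 libraries cannot exclude such a pairing. With a replicate block 11854 genes were called, and 13163 with only the groups compared; the difference between the lines then had 8161 and 8936. In parental cells the block with only the groups compared gave 1714 calls (798 higher, 916 lower, 150 of at least 2-fold). Removing GC and transcript length trends gave 4429 parental calls, 2396 of them lower, and a minimum of 10 counts left 138 of at least 2-fold. Leaving out 1 parental library gave 2008 to 2903 calls, 1046 to 1396 higher, 956 (without parental 48 h replicate 1) to 1507 lower and 203 to 301 of at least 2-fold; the cause of these moves was not tested. Of 272 gene results 249 kept direction and side of the threshold in every alternative run. CDKN1A, not called, had -0.00125 with the GC trend removed. Of 38 list medians, 5 close to 0 changed sign (sterol synthesis, NRF2 targets, BMP pathway, oxidative phosphorylation, MYC network). Counts within lists moved by more than 1.5 times, beside those given with the lists, for SR proteins (1 higher, up to 4), the EGF family (3 lower, up to 5), ERK feedback (2 higher, 1 to 4), the BMP pathway (5 lower, up to 8) and the MYC network (3 lower, up to 6). Where no gene of ribosome biogenesis or hypoxia was higher, or no ribosomal protein lower, 1 was in some alternatives. Across 9795 genes of at least 10 CPM the MYC-ER step correlated with GC content at a Spearman's rho of 0.10 and with transcript length at 0.11. The limit of 0.0219 CPM is one of detection, and low counts above it also mattered. With a minimum of 10 counts in every library the median of histone genes moved from 0.13 to 0.70. That of the EGF family moved from 0.41 to 0.63.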
